A study of Drosophila melanogaster with 13 samples.

Results

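The transcripts described here stood above background in control testes of Drosophila melanogaster, were at least 5 log2 units lower on the arrays of testes mutant for aly and on topi replicate 1, and were less than 1 log2 unit lower in testes mutant for sa. They numbered 106 of the 15676 FlyBase transcripts on the array (0.676%). The level used throughout is a probe's log2 processed signal after subtraction of its array's 75th percentile, so that 1 unit is a 2-fold difference. The members were chosen by the mean levels of the control, aly and sa arrays and the level on topi replicate 1, and the differences of these groups from control are therefore given as a description, with no test. The 3 dany arrays and topi replicate 2 took no part in the choice. None of the 106 could be paired with a gene name from the scanner files or the RefSeq gene table, so they are identified by their FlyBase transcript numbers and no function is given for them.

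In the Drosophila testis, primary spermatocytes transcribe most of the messages that meiosis and sperm formation later use. Loss of a meiotic arrest gene stops the cells as mature primary spermatocytes. aly and topi encode components of tMAC, the testis meiotic arrest complex, which acts on promoters of spermatocyte genes. sa encodes a testis TAF, a testis counterpart of a subunit of the general factor TFIID, and the testis TAFs are known to be needed mainly for spermatid differentiation genes, while tMAC is also needed for transcription of genes of the meiotic cell cycle. dany encodes a nuclear protein of spermatocytes.

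Total RNA from pools of 80 testes of males aged 0 to 2 days, raised at 25 °C, was hybridised to 13 single-colour arrays, and the labels call the replicates biological. Control males (4 arrays) and dany males (3 arrays) both carried w[1118] on the X chromosome and the deficiency Df(2R)BSC802 on 1 second chromosome, opposite a wild-type chromosome in control and opposite the dany[ex11] allele in dany. The sa males (2 arrays) carried sa[1], on a chromosome marked with th and red, over sa[2], on a chromosome marked with ru, h and ca. The aly males (2 arrays) carried w* and the alleles aly[2] over aly[5], both on chromosomes marked with red and e. The topi males (2 arrays) carried bw and topi[Z3-0707] over the topi[Z3-2139] allele. By their labels none of these 3 groups carried the deficiency or w[1118]. Mutant allele and genetic background cannot be told apart for these 3 groups. In whole testes, fewer cells of a type and less RNA per cell cannot be told apart either. Between 60.1% and 75.9% of probes stood above background on an array, with dany arrays the highest. Of the 4 slides each had 1 control array; slide 1 also carried the first replicates of dany, sa and aly, slide 2 the second of aly and the first of topi, slide 3 the second of dany, sa and topi, and slide 4 the last of dany. The topi arrays resembled each other least of all replicates (r = 0.924 across probes, against 0.957 to 0.989 in the other groups), and results that rest on topi are given by array. On topi replicate 2 the transcripts lost in aly and on topi replicate 1 lay at a more even distance below control than on topi replicate 1, as described with the results for that array. Whether its RNA pool held some RNA like that of control testes was not tested, and every value from topi replicate 2 carries this doubt. No probe was named for any of the 4 mutated genes, which were therefore not checked here.

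Among FlyBase transcripts above background on all 4 control arrays (11894), 1186 met the limits for aly and topi replicate 1. The 106 with a sa difference above -1 made up 8.94% of these. A further 991 (83.6%) lay between 1 and 5 log2 units below control in sa and 89 (7.50%) lay at least 5 below. Control levels of the 106 ran from -3.05 to 4.84 with a median of 0.56, and 65 of them were above the 75th percentile of the array. The difference of aly from control had a median of -6.53 (range -10.48 to -5.02), that of topi replicate 1 a median of -7.10 (-12.11 to -5.07) and that of sa a median of -0.43 (-0.98 to 4.02). All 106 stood above background on both sa arrays. On the aly arrays 63 were above background on neither, and on topi replicate 1 83 were not above background, so that their differences are bounds. With these transcripts at their bounds the medians were -5.87 in aly and -6.33 on topi replicate 1. Against the lowest signal that stood above background on those arrays, the 63 were at least 8.60- to 539-fold lower in aly (median bound 50.4-fold) and the 83 at least 7.71- to 1830-fold lower on topi replicate 1 (median bound 70.5-fold).

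**Figure D1:**
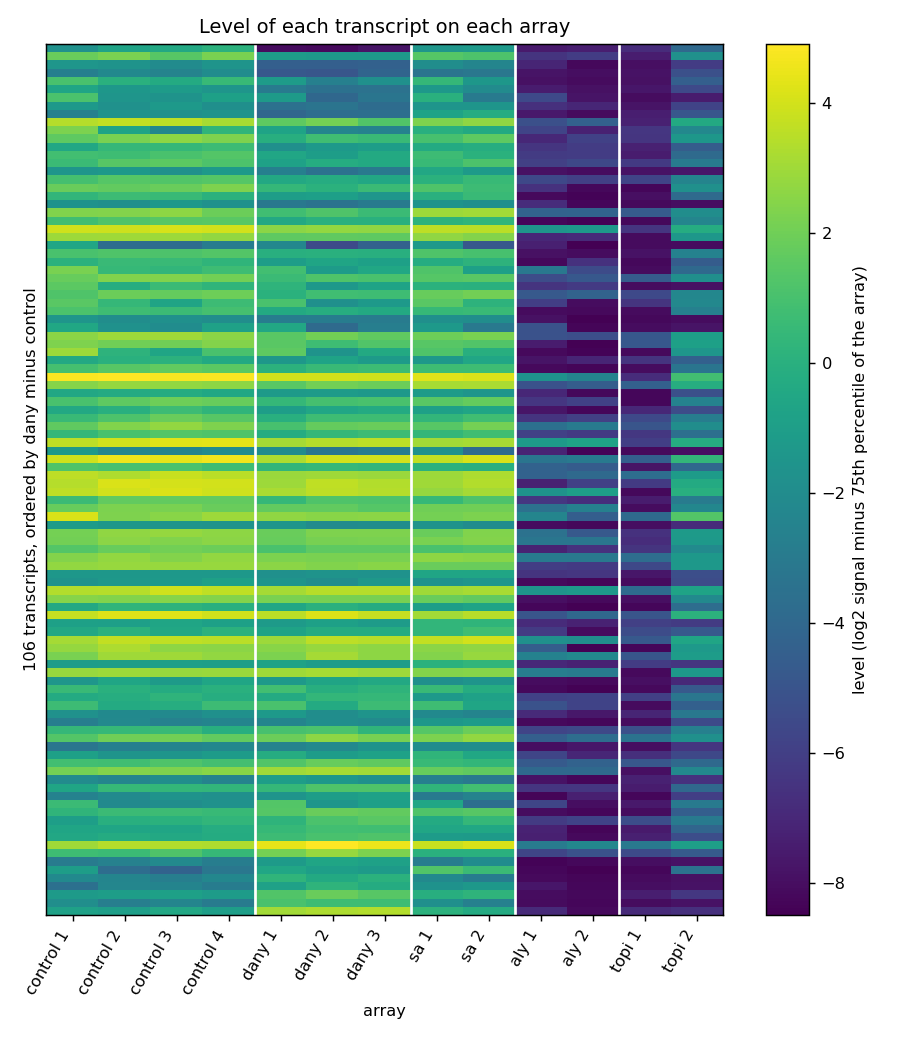
Levels of the 106 transcripts (rows, ordered by dany minus control) on the 13 arrays (columns), in log2 units relative to each array's 75th percentile; white lines separate the genotypes. Control, dany and sa arrays are bright, with array medians from 0.15 to 0.72, the aly arrays and topi 1 are dark (-7.43 to -6.48), and topi 2 lies between (-3.35).

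The limits cut through continuous distributions. At the sa limit, FBtr0073092 (-0.98), FBtr0078595 (-0.98) and FBtr0082236 (-0.98) were just inside and FBtr0087132 (-1.003), FBtr0079109 (-1.01) and FBtr0079118 (-1.01) just outside. At the aly limit, FBtr0073009 (-5.02), FBtr0112381 (-5.06) and FBtr0084242 (-5.06) were inside and FBtr0079760 (-4.98), FBtr0333008 (-4.95) and FBtr0087394 (-4.92) outside. At the topi replicate 1 limit, FBtr0301193 (-5.07), FBtr0070671 (-5.10) and FBtr0300060 (-5.11) were inside and FBtr0302033 (-4.94), FBtr0070645 (-4.94) and FBtr0071841 (-4.80) outside. Of the 106, 48 lay within 0.5 of the sa limit.

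FBtr0074025, FBtr0087717, FBtr0071853 and FBtr0085243 had the lowest measured differences in aly. As 3 of them were above background on neither aly array and FBtr0087717 on 1, their order among the members is not known. FBtr0074025 measured 2.46, 2.38, 2.50 and 2.44 on the control arrays, 2.23, 2.17 and 2.17 in dany, 1.86 and 1.63 in sa, -7.94 and -8.14 in aly, and -7.95 and -2.14 in topi. It was not above background in aly or on topi replicate 1, at least 388-fold lower in aly than in control, while its lowest level on a control, dany or sa array was 1.63. FBtr0085243 measured 2.97, 3.01, 2.93 and 2.77 in control, 1.59, 1.65 and 1.60 in dany, 2.68 and 2.44 in sa, -7.00 and -6.89 in aly, and -8.08 and -1.40 in topi. Its aly level was at least 539-fold below control, and its dany arrays lay below all control and sa arrays. FBtr0087717 measured between 3.44 and 4.14 in control, 2.95 and 3.66 in dany, 3.01 and 3.38 in sa, -7.26 and -5.88 in aly, and -6.21 and -0.30 in topi. FBtr0071853 was above background on topi replicate 1 (-4.79) but on neither aly array (-7.49 and -8.45), against 1.99 to 2.42 in control. In all 4 the level on topi replicate 2 lay between that on topi replicate 1 and the control arrays.

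**Figure D2:**
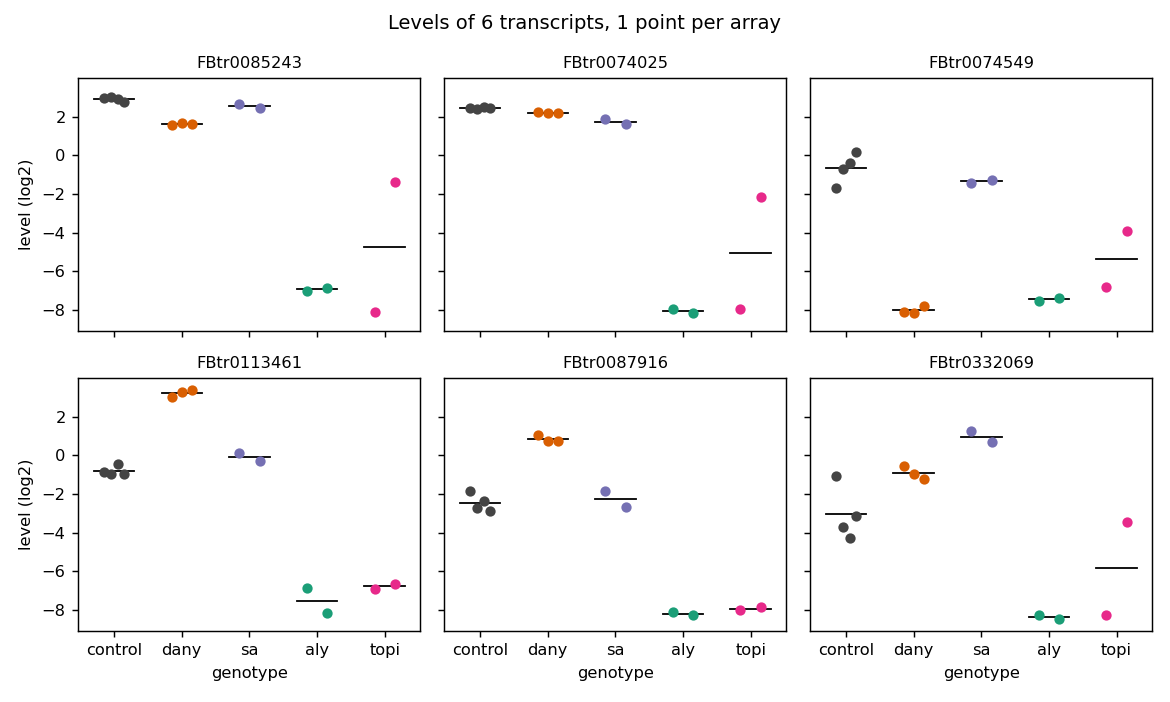
Level (log2) of 6 transcripts in the 5 genotypes, 1 point per array and a line at the group mean. FBtr0085243 and FBtr0074025 are high in control, dany and sa; FBtr0074549 is at -8.17 to -7.79 in dany; FBtr0113461 and FBtr0087916 are higher in dany than in any other genotype; FBtr0332069 is highest in sa (1.27 and 0.67).

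The rule set a lower limit for sa but no upper one. Of the 106, 76 lay below control and 30 above it in sa, 9 of them by at least 1 log2 unit. FBtr0332069 differed most, at -1.05, -3.70, -4.30 and -3.16 in control and 1.27 and 0.67 in sa, while it was near the bottom of the scale in aly (-8.28 and -8.48). Its control arrays spanned more than 3 units, with control 1 the highest, and no control array reached the sa arrays. Without control 1 its mean control level lay less than 5 log2 units above aly and topi replicate 1. It therefore met both of those limits only through control 1. FBtr0082507 measured -2.64, -1.65, -1.74 and -1.60 in control and -0.72 and -0.20 in sa. FBtr0081917 measured -3.54, -2.34, -2.47 and -2.84 in control and -1.64 and -1.35 in sa. In both transcripts the sa arrays lay above all control arrays.

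The second topi array asked whether the difference that chose the members on the first was there in a sample that had no part in the choice. A limma fit without topi replicate 1, which assumes that the lone topi array varies like the other groups, called 100 of the 106 lower on topi replicate 2 than in control (94.3%; adjusted p under 0.05 and at least 2-fold, two-sided, over 19633 targets). Of all tested targets 20.7% were lower by this rule. The control arrays also entered the choice, which required high control levels and favours a lower value on any other array. The median difference of topi replicate 2 from control was -4.21 (range -8.47 to -0.38), against 0.68 over all tested targets, and -4.08 with the 24 transcripts not above background there at their bounds. Within slide 3, topi replicate 2 lay below control 3 for 104 of the 106, with a median of -4.30. The share of all tested targets below control 3 there was not counted.

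Measured levels were mostly higher on topi replicate 2 than on topi replicate 1. Topi replicate 2 was the higher of the pair for 104 of 106 transcripts, by a median of 3.24 log2 units (range -0.30 to 8.15), while over all tested targets the median was -0.21. The choice of low values on topi replicate 1 favours this direction. On topi replicate 2, 82 of the 106 stood above background, against 23 on topi replicate 1. All 82 were higher there than on topi replicate 1, with transcripts not above background on the latter at their bounds, by a median of 2.92. Of the 60 that were above background neither in aly nor on topi replicate 1, 38 were detected on topi replicate 2. The drop on topi replicate 2 was between 3 and 5 log2 units for 72 transcripts, at least 5 for 22 and under 3 for 12. Among the 82 transcripts detected there, levels on topi replicate 2 followed control levels with r = 0.861. Over the same transcripts r was 0.441 for topi replicate 1, 0.677 for aly replicate 1 and 0.709 for aly replicate 2. These coefficients describe points of the same arrays, and the array floor limits those of topi replicate 1 and aly. The 991 transcripts lost in aly and on topi replicate 1 with a sa drop of 1 to under 5 had a median of -4.21 on topi replicate 2, with quartiles of -4.58 and -3.93, although their median on topi replicate 1 was -9.25 with quartiles of -10.63 and -7.41. The 89 with a larger sa drop had a median of -4.89 on topi replicate 2 and -8.53 on topi replicate 1. The quartiles of the 106 on topi replicate 2 were -4.86 and -3.74. What set this distance from control was not tested.

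**Figure D3:**
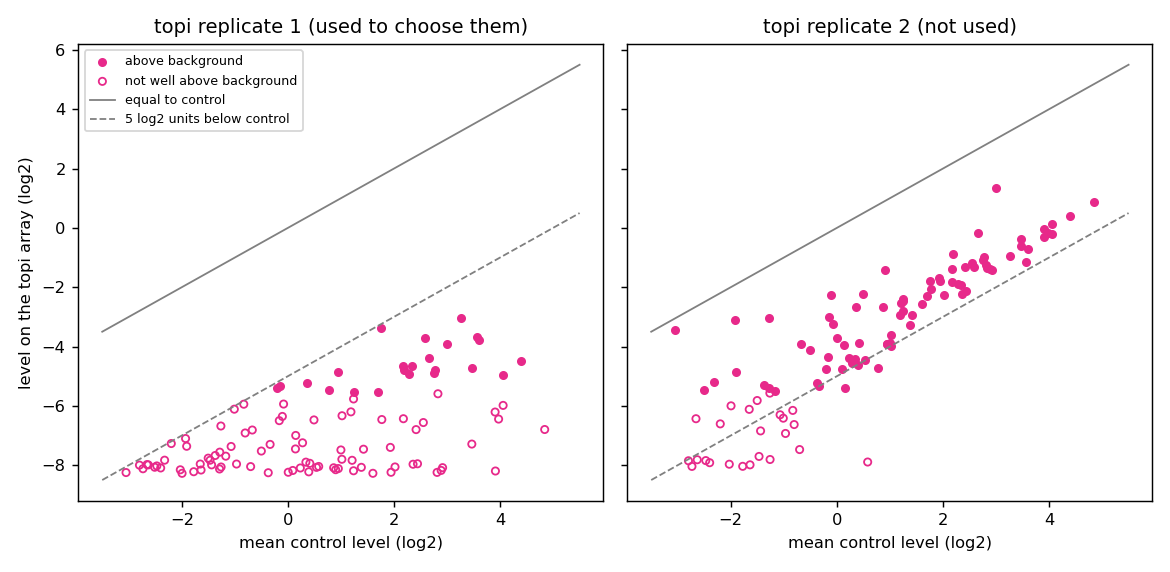
Level of each of the 106 transcripts on topi replicate 1 (left) and topi replicate 2 (right) against its mean control level, both log2; filled points stood above background, the solid line marks equality with control and the dashed line 5 log2 units below it. On topi replicate 1 most points lie along the floor, and on topi replicate 2 most run parallel to the equality line, with a median difference of -4.21.

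The transcripts least lowered on topi replicate 2 were FBtr0332069, FBtr0070551 and FBtr0072653. FBtr0070551 measured -1.69, -2.13, -2.13 and -1.76 in control, -7.10 on topi replicate 1 and -3.12 on topi replicate 2, a difference of -1.19 (SE 0.363, adjusted p = 0.0178). The call of FBtr0070551 ended with normexp background correction (-0.93), with spike-in scaling (-1.18, adjusted p = 0.299) and with the replicate number as a term (-0.89). FBtr0332069 at -3.43 lay among its control arrays (difference -0.38, adjusted p = 0.746). FBtr0072653 measured 4.18, 2.31, 2.53 and 2.96 in control, -3.91 on topi replicate 1 and 1.34 on topi replicate 2, a difference of -1.66 that did not pass (SE 0.773, adjusted p = 0.0907). It passed when slide entered the fit (-1.73, adjusted p = 0.0311), with normexp background correction (-1.71, adjusted p = 0.0425) and without either aly array (-1.66, adjusted p = 0.0386). The other uncalled transcripts were FBtr0077722, FBtr0079425, FBtr0290242 and FBtr0332785, named for being outside the call. Their control SDs were 1.52, 0.89, 1.29 and 1.92, against a median of 0.296 over the members. A second probe, not tested, gave -3.82 for FBtr0077722 and -6.46 for FBtr0290242, where the chosen probes gave -2.33 and -1.755. The other pair, FBtr0079425 and FBtr0332785, had 1 probe each. FBtr0332785 spanned -2.29 to 2.28 over the control arrays, and topi replicate 2 (-2.25) lay within that span.

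The comparison of dany with control asked what became of these transcripts in a further mutant. As with topi replicate 2, the control arrays had entered the choice, which favours a lower value in dany. Of the 106, 55 differed from control by less than 1 log2 unit, 38 were lower and 13 higher by at least that much. The median difference was -0.60 against 0.06 over all tested targets. The quartiles were -1.23 and 0.25, against -0.81 and 1.295 over all tested targets, so a difference under 1 was common there too. On all 3 dany arrays 105 of the 106 stood above background. In the limma fit of all 13 arrays 16 were lower (15.1% of the members, against 15.7% of all tested targets) and 9 higher (8.49% against 28.1%). The share lower is near the background. Of the 14490 tested targets above background on all control arrays, as the members had to be, 20.3% were lower and 18.7% higher. The shared estimate of the spread was widened for the members by the distance between the topi arrays: their median SE was 0.626, against 0.305 over all targets, and 0.262 when topi replicate 1 was left out. Without topi replicate 1, or without topi replicate 2, 31 of the 106 were lower (29.2%, against 18.8% of all targets without replicate 1) and 13 higher (12.3%, against 28.1%). All 16 and all 9 were among these. For this fit the shares among targets above background on all control arrays were not counted. The counts also depended on the scaling, with 43 lower and 5 higher under median scaling and 3 and 12 under spike-in scaling, which moved the median of all targets to -0.69 and 0.75. Counts over all 19633 tested targets moved the same way. From 3073 lower and 5510 higher they became 7305 and 3668 under median scaling and 905 and 6404 under spike-in scaling. Relative to the median of all targets the members' median was -0.67 under each of these 3 scalings, which shift every target of an array alike, -0.24 with quantile normalization and -0.20 in the deposited series table.

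**Figure D4:**
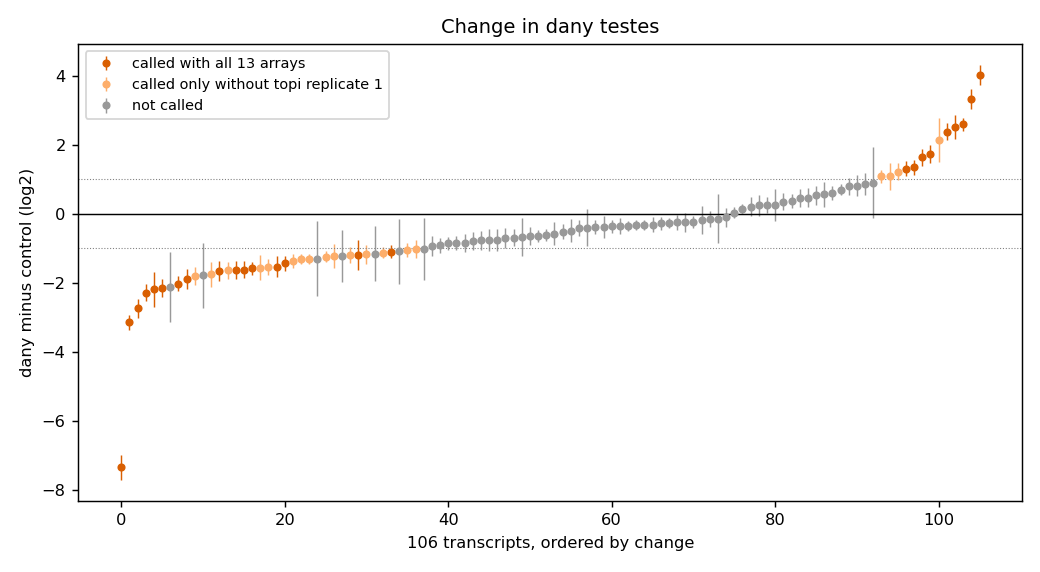
Difference of dany from control (log2) for each of the 106 transcripts in order of size; bars are the SE of the limma estimate without topi replicate 1, dotted lines mark 2-fold, and colours show the calls. 16 transcripts were lower and 9 higher with all 13 arrays, and a further 15 and 4 were called only without topi replicate 1.

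FBtr0074549 fell most in dany, and alone among the members was not above background on any dany array. It measured -1.70, -0.73, -0.40 and 0.15 in control, -8.12, -8.17 and -7.79 in dany, -1.44 and -1.26 in sa, -7.53 and -7.36 in aly, and -6.81 and -3.92 in topi. It was at least 103-fold lower than in control (adjusted p = 2.31e-06), and it was not above background in aly either. FBtr0080501 measured 1.84, 2.24, 1.44 and 2.21 in control and -1.16, -1.25 and -1.25 in dany, and fell by 3.15 (SE 0.977, adjusted p = 0.0185). FBtr0302286 measured -1.45, -1.60, -2.02 and -1.54 in control and -4.43, -4.41 and -4.33 in dany, and fell by 2.74 (SE 0.405, adjusted p = 0.000197). FBtr0081312 measured -2.71, -2.13, -2.49 and -1.96 in control and -4.80, -4.89 and -4.16 in dany, and fell by 2.29 (SE 0.50, adjusted p = 0.00263). In each of these 4 the dany arrays lay below every control array and below both sa arrays. The other 12 transcripts called lower had smaller differences, the least being -1.10. Among them FBtr0082507, which was above control in sa, fell by 1.89 in dany (SE 0.505, adjusted p = 0.00864). Under spike-in scaling the calls of FBtr0081312 (-1.61, adjusted p = 0.052) and FBtr0082507 (-1.20, adjusted p = 0.18) ended.

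FBtr0113461 rose most in dany. It measured -0.84, -0.98, -0.44 and -0.96 in control, 3.04, 3.27 and 3.38 in dany, 0.12 and -0.31 in sa, -6.88 and -8.14 in aly, and -6.91 and -6.63 in topi, a rise of 4.03 (SE 0.289, adjusted p = 9.1e-07). FBtr0087916 measured -1.86, -2.74, -2.38 and -2.90 in control and 1.06, 0.75 and 0.76 in dany, a rise of 3.32 (SE 0.281, adjusted p = 3e-06). Its sa arrays (-1.82 and -2.67) lay about where the control arrays did. FBtr0339307 measured -1.21, -1.03, -0.90 and -1.15 in control and 1.29, 1.86 and 1.45 in dany, a rise of 2.61 (SE 0.257, adjusted p = 9.84e-06). FBtr0081917 measured -0.82, 0.21 and -0.23 in dany, a rise of 2.52 (SE 0.330, adjusted p = 8.21e-05). In all 4 every dany array lay above every control array and every sa array, and topi replicate 2 was not above background. The other 5 transcripts called higher rose by 1.32 to 2.39. On slides 1, 3 and 4, which held both genotypes, all 16 lower and all 9 higher transcripts had the called sign on each slide, as had the 31 and 13 called without topi replicate 1. The calls had used the same arrays, which favours this.

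Of the transcripts named for their aly difference or for lying at a limit, FBtr0085243 differed from control by -1.30 in dany, with an adjusted p of 0.35 in the fit of 13 arrays and 3.85e-05 without topi replicate 1. FBtr0071853 (-1.02, adjusted p = 0.241 and 0.00772) and FBtr0073092 (-1.37, adjusted p = 0.264 and 0.000327) likewise passed in the second fit and not in the first, and both also passed with all 13 arrays under median scaling (-1.78, adjusted p = 0.0194, and -2.13, adjusted p = 0.0482). FBtr0332069 at 2.13 did so as well (adjusted p = 0.0983 and 0.0157), and also passed without control 1, its highest control array (2.80, adjusted p = 0.0318). FBtr0074025 gave -0.25 (adjusted p = 0.841 and 0.155), FBtr0087717 gave -0.58 (0.658 and 0.165) and FBtr0070671 gave 0.03 (0.886 and 0.881), and none of these passed in either fit.

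In the comparison of dany with topi replicate 2, neither the dany arrays nor that topi array had served to choose the members. Topi replicate 1, of the same genotype, had served, which favours low values on topi replicate 2 and so a positive difference here. The error of the comparison came from the replicates of the other genotypes as well, among them the control, sa and aly arrays used in the choice. The comparison also rests on 1 topi array, with the doubt given above. In the limma fit without topi replicate 1, 96 of the 106 (90.6%) were higher in dany, against 27.7% of all tested targets, and 1 was lower, against 31.2%. The 1 that was lower was FBtr0074549, at least 10.8-fold lower in dany, where it was not above background (adjusted p = 0.00019). The median difference was 3.66, or 3.46 with transcripts not above background at their bounds, against -0.38 over all tested targets, and the members remained mostly higher under every scaling tried (92 to 98 of 106 over all alternatives). Over the same alternatives 4179 to 5809 of all tested targets were higher. Within slide 3, dany 2 lay above topi 2 for 103 of the 106, with a median of 3.71. The share of all tested targets with this sign on slide 3 was not counted. The transcripts with a sa drop of 1 to under 5 had a median of 2.31 in this comparison and those with a larger drop 1.36. Whether these medians differ from that of the members was not tested. For the 24 transcripts not above background on topi replicate 2, dany was at least 2.66- to 523-fold higher (median bound 23.3-fold). They included the 4 that rose most in dany, with bounds of at least 523-fold for FBtr0113461, 162-fold for FBtr0339307, 101-fold for FBtr0087916 and 45.9-fold for FBtr0081917. FBtr0080501 (0.49, adjusted p = 0.23), FBtr0081312 (0.59, adjusted p = 0.19) and FBtr0082507 (1.06, adjusted p = 0.0595) did not pass. FBtr0332069 was called higher (2.51, adjusted p = 0.045), a call that ended when any of several single arrays was left out (for example without dany 1, at 2.33 with an adjusted p of 0.0869).

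Replicate spread was uneven among the members. The SD over the 4 control arrays ran from 0.039 to 1.92 with a median of 0.296, against 0.346 over all tested targets, and 6 members exceeded 1. In 8 members (7.55%, against 5.45% of tested targets) the slide 1 arrays of control and dany each lay more than 1 log2 unit above the mean of the other arrays of their genotype, and sa 1 as far above sa 2. Slide 1 held 1 of 2 sa arrays but 1 of 4 control arrays, so this pattern raises a sa difference of group means. By group means FBtr0081700 (-0.78), FBtr0083744 (-0.78) and FBtr0290242 (-0.80) met the sa limit. On both slides 1 and 3 their sa array lay more than 1 log2 unit below the slide's control array. In the others of the 8 this did not hold on both slides. FBtr0080993 measured -0.58 on control 1 against -3.76, -3.71 and -2.88 on the other controls, -2.27 on dany 1 against -5.49 and -4.33, and -1.29 on sa 1 against -4.78 on sa 2. FBtr0083744 measured 1.14 on control 1 against -1.48, -1.58 and -0.89, and -1.17 on dany 1 against -4.00 and -3.30. It gave -2.12 in dany with an adjusted p of 0.0861, and -2.40 with an adjusted p of 4.21e-05 when the slide was a term in the fit. In both transcripts control 1 stood further from the mean of the other controls than dany did from control in the fit of 13 arrays. Slide 1 was the only slide of its scan day and held only first replicates, so slide, scan day and replicate set cannot be told apart here. Which of their properties moves with these transcripts was not tested.

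A further probe of the same transcript was on the array for 30 of the 106, and 28 such probes, of 27 members, were above background in control. They were measured on the same arrays and are no independent test. Of the 28, 21 were at least 5 log2 units lower both in aly and on topi replicate 1, and 19 met all limits. The second probe of FBtr0085243 gave -9.69 in aly and -0.98 in sa, and that of FBtr0080501 gave -7.21 in aly, 0.76 in sa and -2.92 in dany. Probes of 1 transcript disagreed in some cases. The second probe of FBtr0073009 gave -0.38 in aly and -6.96 on topi replicate 1, where the first had -5.02 and -10.04, and that of FBtr0077722 gave -3.002 in sa.

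Few genes of the pathway could be followed by name. Of the 9 listed tMAC subunits and partners 1 was matched, and none of the 5 testis TAFs, 8 meiotic cell cycle genes or 18 spermatid differentiation genes. wuc, a partner of tMAC, measured 0.22 to 0.81 in control, -0.13 to 0.57 in dany, 1.02 and 1.39 in sa, 2.56 and 3.00 in aly and 3.94 and 3.26 in topi. It was higher on topi replicate 2 (2.71, SE 0.339, adjusted p = 9.26e-05), in the direction opposite to the members, and did not pass in dany (-0.35, adjusted p = 0.263). Of the 14 cup and comet genes, transcribed after meiosis, 3 were matched, and f-cup (-2.69, SE 0.196, adjusted p = 1.03e-06) and soti (-1.26, SE 0.223, adjusted p = 0.000662) fell in dany, hale did not pass (-2.32, adjusted p = 0.169), and f-cup fell on topi replicate 2 (-1.83, adjusted p = 0.000351). hale was high on slide 1, at -0.91 on control 1 against -4.575, -4.34 and -3.93, and -3.395 on dany 1 against -7.21 and -6.66. On each slide that held both, its dany array lay below the control array. The fit had no term for slide. f-cup stayed well above background in aly and topi, and none of the 3 came near the aly limit (f-cup -1.80, hale -0.38 and soti 0.55). The aly arrays of hale (-1.83 and -5.815) each lay below the control array of their slide. Among markers of other cells, 3 of 8 somatic cyst and hub cell genes were matched, of which eya was higher on topi replicate 2 (1.13, adjusted p = 0.00845), ptc (-0.37, adjusted p = 0.658) and puc (-0.997, adjusted p = 0.438) had negative differences that did not pass, and none passed in dany. eya, a transcription cofactor of somatic cyst cells, measured -5.24 to -4.84 in control, -4.88 to -4.25 in dany, -4.24 and -4.16 in aly and -3.69 and -3.85 in topi. The part of somatic cells in the members' differences was not tested, and the markers of early germ line, sheath muscle, accessory gland and fat body had no matched gene.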

How the data were processed

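Per the file headers, the authors extracted linear signal intensity with Agilent Feature Extraction 10.7.3.1 and the same extraction protocol for all arrays, and other deposited columns hold flags of 0 or 1. The deposited series table holds log2 values with nearly equal distributions (medians 8.02 to 8.05), whose normalization is not given in the sources used here; it served as an alternative. Spots of a probe were averaged in log2 without outlier-flagged spots where others remained, and the probe with the highest mean over all arrays stood for a target. Tests covered the 19633 of 25796 targets whose probe was above background on all arrays of some genotype. Fits used limma 3.58.1 in R 4.3.3 with 1 mean per genotype and Benjamini-Hochberg adjustment over all tested targets, and were checked on simulated data. Dany against control had 8 residual and 2.42 prior degrees of freedom. The comparisons with topi replicate 2 had 7 and 2.58. The number of arrays limits the precision. Bounds ("at least") set the dim level to the lowest signal above background on each array. Normexp background correction used the median signal, since the files hold no mean signal. The named transcripts were the extremes in aly, dany, sa and topi replicate 2 and those nearest the limits; others are named as exceptions after their values were seen. Members, lists and rules were chosen with earlier results of these data known. The gene table (Release 6) matched 480 targets of 466 genes by accession, symbol or synonym, and 0 of the members; the array design is annotated to an earlier build, so no positions are given. No sequences were used here. A source label of control replicate 4 gives the number 3, and the title was followed. Replicate numbers were not taken to pair the arrays, since not every same-numbered pair deviated together from its group means. Same-numbered arrays on different slides had a median r of 0.034 (-0.034 to 0.670 over 11 pairs); control and dany gave 0.431 for number 2 and -0.023 for number 3. Pairs of this kind that held a topi array ran from -0.034 to 0.038. The rest, all of number 2, gave 0.456 for control and sa, 0.573 for dany and aly and 0.670 for sa and aly. Different-numbered arrays on different slides had a median r of -0.10 (-0.725 to 0.495 over 39 pairs). Same-numbered arrays on 1 slide had a median r of 0.610 (-0.034 to 0.725 over 10 pairs). Different-numbered arrays on 1 slide had a median r of 0.254 (0.011 to 0.539 over 6 pairs). In groups of 2 arrays the deviations mirror each other, so these pairs are not independent.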

Additional observations from a re-analysis of the deposited data

Results flagged for a closer look

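FBtr0082507 had 1 control array apart from the other 3. Control 1 measured -2.64 against -1.74 to -1.60, a gap of 0.86 of the whole range, above Dixon's critical value for 4 samples. Of 25 named transcripts examined in this way 1 was set apart, about as many as the 1 in 20 that chance gives. The cause was not tested.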

How the results depend on the processing

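The count of members called lower in dany was 16, and 43 with median scaling, 3 with spike-in scaling and 26 with normexp background correction. Over all 19633 tested targets the matching counts were 3073, 7305, 905 and 3262. The count called higher was 9, and 5 with median scaling and 14 with the deposited series table. Over all tested targets these counts were 5510, 3668 and 4199. When 1 array was left out, 11 to 31 were lower and 8 to 13 higher, the highest values coming from leaving out either topi array. Over all tested targets these ranges were 2814 to 3691 lower and 5290 to 5620 higher. With the slide as a term 20 were lower and 9 higher, and with the replicate block (the replicate number as a term) 15 and 10. Over all tested targets 3430 were lower and 5739 higher with the slide, and 3240 and 5503 with the replicate block. On topi replicate 2, 99 to 102 members were lower under all alternatives (100 to 101 without 1 array; 100 with the replicate block), and 92 to 98 were higher in dany than on topi replicate 2 (95 to 98 without 1 array; 98 with the replicate block). Over all tested targets 3084 to 4388 were lower on topi replicate 2, and 4179 to 5809 were higher in dany than there. No call of a named transcript reversed. The number of members itself moved with the processing: 106 became 153 with quantile normalization (86 of them shared), 61 with median scaling, 48 with normexp background correction (43 shared) and 99 to 125 when 1 array was left out, and the deposited series table gave 105 of which 54 were shared. Rises were 64.2% of all calls in dany against control, and 33.4% with median scaling, 52.8% with quantile normalization, 87.6% with spike-in scaling, 51.6% after normexp correction and 55.2% for the authors' deposited values. Rises were 62.4% of all calls on topi replicate 2 (46.8% with spike-in scaling), and 47.0% in dany against topi replicate 2 (88.1% with spike-in and 33.1% with median scaling). The cause of these shifts was not tested. Many members in aly and topi were not above background, so their losses there have only bounds.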
